A study of Mus musculus with 4 samples.

Results

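The genes described here are 42 endothelial and angiogenic genes of the mouse, measured by microarray in the parietal peritoneum, the membrane that lines the abdominal wall. They were taken from a fixed list by name and divided by role into endothelial identity genes (12), endothelial receptors (6), lymphatic genes (3), vascular ligands (9), vasoactive receptors and enzymes (6), Notch genes (2) and adhesion and activation genes (4). Of the 42, 41 could be matched to a probe set of a single gene, out of 18193 named genes in all. The remaining gene, Angptl2, was not analysed here. Each gene is read from 1 probe set, the brightest on average. By the authors' detection call that probe set was Present on at least 1 array for 38 of the 41 genes and on all 4 arrays for 32. No probe set of Erg, Hey1 or Pgf was Present on any array.

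The study has 4 Affymetrix arrays, 1 per group, so no difference below has a replicate check. All mice had a C57BL/6J background. The wild-type group treated with chlorhexidine received chlorhexidine gluconate at 0.1% in 15% ethanol and 85% PBS into the peritoneal cavity, at 0.01 mL per gram of body weight, 3 times a week over 21 days. The transgenic group treated with chlorhexidine received the same, and carried a brain natriuretic peptide (BNP) gene under the serum amyloid P promoter (SAP-BNP-Tg). The wild-type and transgenic control groups were injected with ethanol/PBS and are called vehicle below, and the labels give no volume or schedule for them. The transgene is driven by a promoter of a circulating liver protein, not by one of the peritoneum, and the number of mice behind each array, their age and their sex are not in the labels. Chlorhexidine gluconate is an antiseptic that irritates the peritoneum and is used in mice to produce peritoneal fibrosis, and BNP is a cardiac hormone that acts through a guanylyl cyclase receptor.

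Blood vessels are lined by endothelial cells, which are held together by VE-cadherin (Cdh5) and PECAM-1 (Pecam1) and are maintained by the receptors for vascular endothelial growth factors (VEGFs) and angiopoietins. In angiogenesis, VEGF-A acts on the receptor VEGFR2 (Kdr), the neuropilins act as its co-receptors, and the Notch ligand Dll4 limits the number of sprouts. Lymphatic vessels depend on VEGF-C and its receptor VEGFR3 (Flt4). In the peritoneum these vessels carry the exchange of water and solutes, and growth of new vessels is a known companion of peritoneal fibrosis.

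Signals are given below with the wild-type arrays first (vehicle, then chlorhexidine) and the transgenic arrays after them (vehicle, then chlorhexidine), after each array was scaled to the same trimmed mean. They are on a linear scale in arbitrary units, and signals of different genes cannot be set against each other. A log2 difference is a difference between 2 arrays on the log2 scale. A gene is called higher or lower where its difference was at least 2-fold, the brighter array was called Present, and the signal on it reached the lowest quartile boundary (25th percentile) of the Present probe sets. A fold against an array that was not Present is only a lower bound and is written "at least". In this bulk tissue, fewer endothelial cells and less RNA per cell cannot be told apart.

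The arrays detected 50.5% to 55.1% of probe sets as Present. The array of vehicle-treated wild-type mice stood apart in the control probe sets for 18S ribosomal RNA, with a mean scaled signal of 1052 against 81.5 to 108 on the other arrays. Every wild-type chlorhexidine difference rests on that array, so the median and the called genes are also given against the transgenic vehicle array, and the part of the 18S signal in the differences was not tested. Muscle of the abdominal wall was in the samples, with all 8 skeletal muscle markers Present on each array, and 7 or 8 of 8 mesothelial markers were Present on each array.

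With chlorhexidine, 8 of the 38 detected genes were called higher in wild type (21.1%), where 8.22% of all 12754 detected genes were. They were Plvap, Emcn, Kdr, Nrp1, Nrp2, Flt4, Mmrn1 and Aplnr, which include a VEGF receptor of blood vessels, that of lymphatic vessels and both neuropilins. None of the 38 was called lower in wild type, where 4.93% of all genes were. In SAP-BNP-Tg mice 2 of the 38 were called higher (5.26%), Aplnr and Icam1, where 3.81% of all genes were, and none was called lower (1.4% of all genes). The median log2 difference of the 38 was 0.60 in wild type, with 27 of 38 above 0, and -0.03 in SAP-BNP-Tg mice, with 17 of 38 above 0. The medians of all 12754 genes were -0.00 and 0.00. Some of the 38 were Present only on a chlorhexidine array. Over the 32 genes Present on all 4 arrays the median was 0.52 in wild type, with 21 of 32 above 0. In SAP-BNP-Tg mice it was -0.02, with 15 of 32 above 0.

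**Figure D1:**
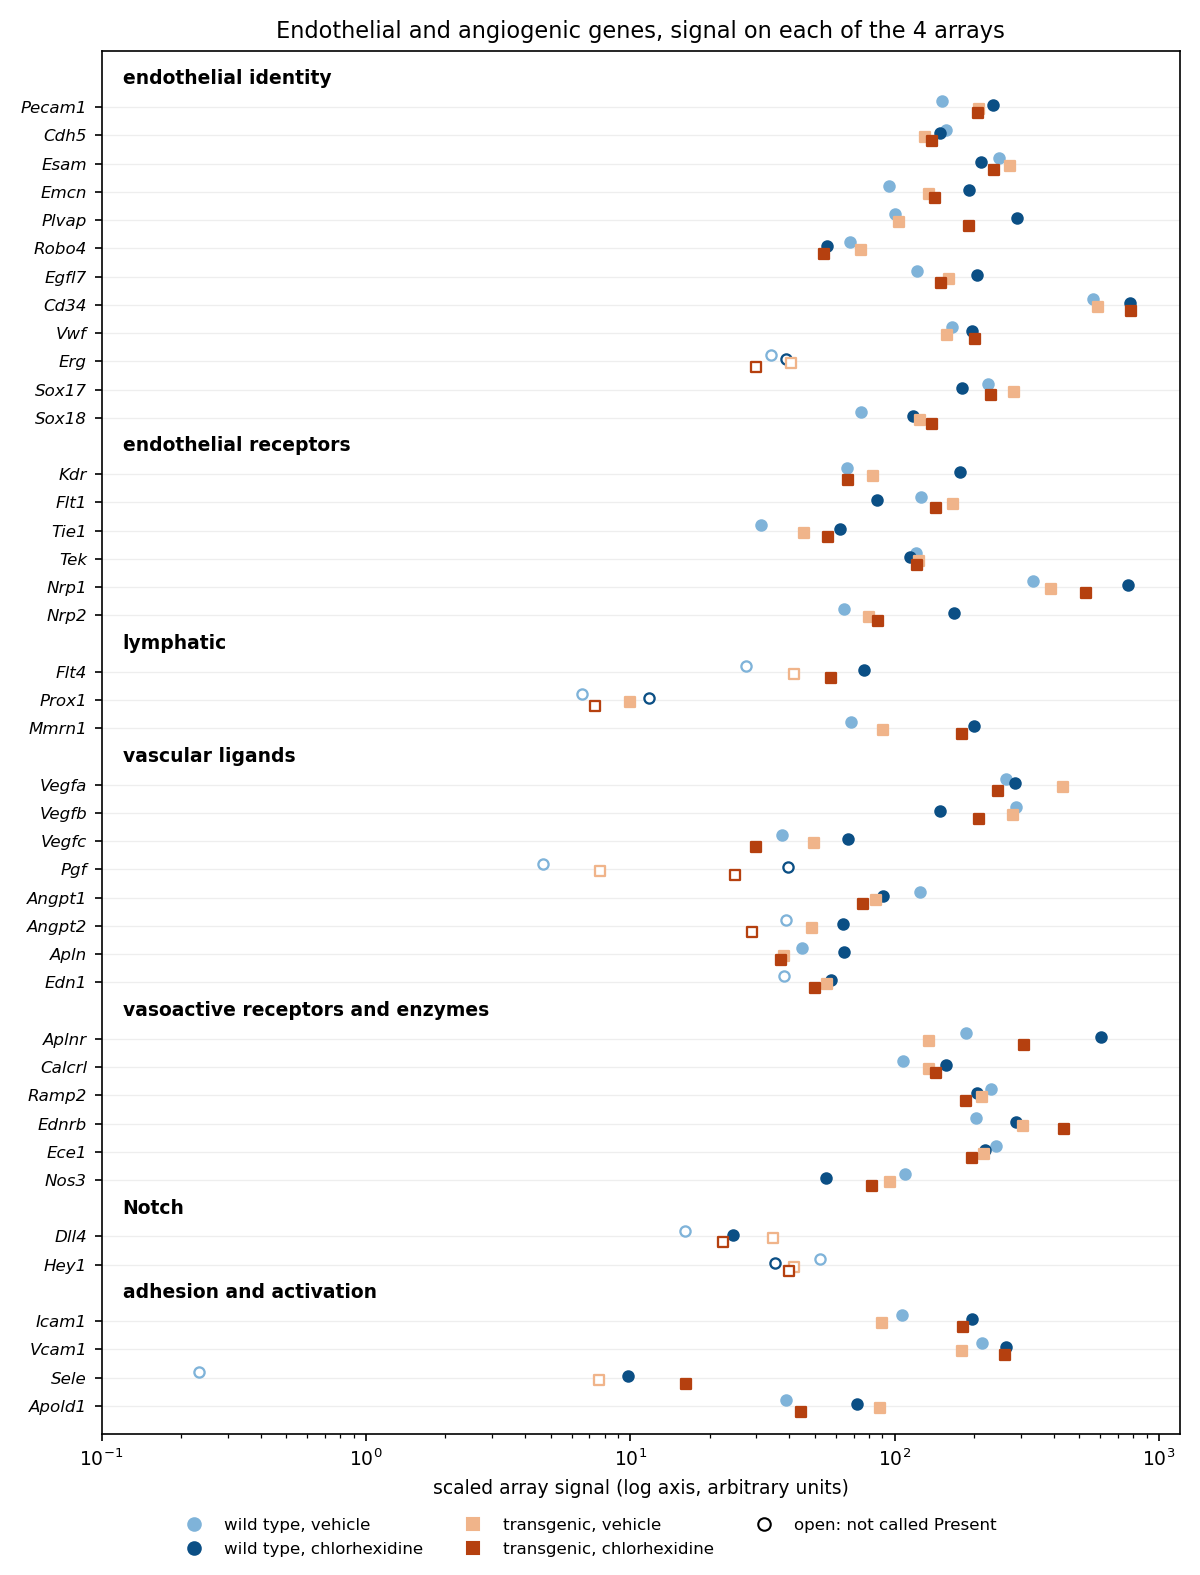
Scaled signal of the 41 measured genes (log axis, arbitrary units), with 1 point per array and open points where the array was not called Present. The wild-type chlorhexidine points of Kdr, Nrp2 and Aplnr lie to the right of their other 3 points, and the points of Tek lie together.

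The upstream sequences of 4 of these genes are shown because their 4 arrays make up the main patterns below. On the probe sets used, Kdr and Nrp2 were higher on the wild-type chlorhexidine array alone and Mmrn1 on both chlorhexidine arrays. Icam1 was called higher in SAP-BNP-Tg mice. Each line gives the 250 bases before the transcription start in RefSeq (assembly GRCm38.p6), read 5′ to 3′ on the gene's strand. Capitals mark GGAA on this strand or TTCC, its complement on the other strand, the core letters bound by ETS family factors, which act in endothelial genes.
Kdr: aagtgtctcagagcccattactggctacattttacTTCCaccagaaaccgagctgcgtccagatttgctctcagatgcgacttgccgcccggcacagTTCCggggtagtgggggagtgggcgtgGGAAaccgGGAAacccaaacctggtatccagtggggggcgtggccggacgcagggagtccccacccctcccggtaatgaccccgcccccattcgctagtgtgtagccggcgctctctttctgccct
Nrp2: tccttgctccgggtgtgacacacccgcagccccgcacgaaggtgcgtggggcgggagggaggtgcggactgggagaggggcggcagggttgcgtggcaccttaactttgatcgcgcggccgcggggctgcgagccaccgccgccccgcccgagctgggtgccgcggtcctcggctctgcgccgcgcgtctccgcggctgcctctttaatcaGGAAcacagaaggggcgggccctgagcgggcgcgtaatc
Mmrn1: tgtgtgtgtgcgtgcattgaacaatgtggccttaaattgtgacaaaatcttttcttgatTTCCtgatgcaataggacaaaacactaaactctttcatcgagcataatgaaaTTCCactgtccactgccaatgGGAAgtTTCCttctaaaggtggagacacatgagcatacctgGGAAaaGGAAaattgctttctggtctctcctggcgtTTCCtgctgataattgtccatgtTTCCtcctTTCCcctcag
Icam1: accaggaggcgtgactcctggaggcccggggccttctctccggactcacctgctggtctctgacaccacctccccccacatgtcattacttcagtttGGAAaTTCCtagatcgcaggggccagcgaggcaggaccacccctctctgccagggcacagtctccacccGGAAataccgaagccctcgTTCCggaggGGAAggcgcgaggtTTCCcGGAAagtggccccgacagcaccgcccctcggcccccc

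These windows lie at chr5:75978456-75978705 on the minus strand (Kdr), chr1:62703067-62703316 on the plus strand (Nrp2), chr6:60944067-60944316 on the plus strand (Mmrn1) and chr9:21015690-21015939 on the plus strand (Icam1). The motif occurred 4 times before Kdr, once before Nrp2, 9 times before Mmrn1 and 7 times before Icam1, counting both strands. It is common: 93.4% of all 32851 promoters in the table held at least 1 copy, against 33 of the 38 promoters (86.8%) found for 28 of the 42 genes. At least 4 copies were in 33.4% of all promoters and in 13 of these 38 (34.2%). The genes thus did not stand out in this count, and a match of letters is not a measured binding site.

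Endothelial identity genes, which mark the cells themselves, gave a mixed picture in wild type: of the 11 detected, Plvap and Emcn were called higher and the rest stayed within 2-fold. Plvap, which forms the diaphragms of endothelial fenestrae and caveolae, had signals of 101, 290, 104 and 191. Both chlorhexidine arrays lay above both vehicle arrays, by 2.88-fold in wild type and 1.85-fold in SAP-BNP-Tg mice, the second below the threshold. Emcn, the sialomucin endomucin of veins and capillaries, had signals of 95.5, 192, 135 and 142. Only its wild-type vehicle array was low, and its 2.01-fold difference in wild type fell to a log2 difference of 0.50 against the transgenic vehicle array. It was also not called under quantile normalization (0.85), median centring (0.82) or cyclic loess (0.87). In SAP-BNP-Tg mice Emcn differed by 1.05-fold.

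None of the adhesion molecules at endothelial junctions was called. Pecam1 had signals of 151, 236, 210 and 207, 1.56-fold higher in wild type, with the wild-type vehicle array the low one here too. Cdh5 had signals of 157, 149, 130 and 139, within a log2 difference of 0.09 with chlorhexidine in both genotypes, though its other probe set gave 0.54 in wild type. Esam, another junction molecule, had signals of 248, 213, 274 and 237, slightly lower with chlorhexidine in both genotypes. The surface sialomucin Cd34, which fibroblast progenitors carry as well, had signals of 566, 776, 587 and 785, with both chlorhexidine arrays above both vehicle arrays. Vwf, the clotting factor stored in endothelial cells and platelets, had signals of 165, 197, 157 and 202, and its chlorhexidine arrays also lay above both vehicle arrays. Neither reached 2-fold.

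Egfl7, a protein secreted by endothelial cells, had signals of 121, 205, 160 and 150, and Robo4, an endothelial guidance receptor, had 67.7, 55.4, 74.7 and 54.2. Egfl7 was thus highest on the wild-type chlorhexidine array, while Robo4 was lower with chlorhexidine in both genotypes. The transcription factor Sox17, of arterial endothelium, had signals of 226, 181, 283 and 231. Sox18, which acts upstream of lymphatic fate, had signals of 74.8, 117, 124 and 139. Sox17 was lower and Sox18 higher with chlorhexidine in both genotypes, each by less than 2-fold. The other Sox17 probe set gave 0.19 on the log2 scale in wild type and -0.24 in SAP-BNP-Tg mice. The median log2 difference of the 11 identity genes was 0.46 in wild type and 0.07 in SAP-BNP-Tg mice.

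Among the 6 receptors, 3 were called higher in wild type, Kdr, Nrp1 and Nrp2, and none in SAP-BNP-Tg mice. Kdr, the main signalling receptor for VEGF-A, had signals of 65.9, 176, 83.3 and 66.7. The wild-type chlorhexidine array stood alone, 2.67-fold above its vehicle, and the transgenic chlorhexidine array was 1.25-fold below its own. Nrp2, a co-receptor for VEGF-C and semaphorins, had signals of 64.6, 168, 80.2 and 86.7. On the probe set used it differed by 2.60-fold in wild type and 1.08-fold in SAP-BNP-Tg mice, with the same array standing alone. Its other 2 probe sets Present on at least 1 array gave 0.50 and 0.63 on the log2 scale in SAP-BNP-Tg mice. Nrp1, the co-receptor for VEGF-A, had signals of 335, 767, 389 and 531, and both chlorhexidine arrays lay above both vehicle arrays. Its folds were 2.29 in wild type and 1.36 in SAP-BNP-Tg mice.

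The other receptors did not pass 2-fold. Tie1, an orphan receptor that modulates angiopoietin signalling, had signals of 31.4, 62.4, 45.4 and 56.1, a 1.99-fold difference in wild type and 1.23-fold in SAP-BNP-Tg mice. Flt1, which binds VEGF-A and limits its action on Kdr, had signals of 126, 85.8, 166 and 144 on the probe set used. On that probe set it was lower with chlorhexidine in both genotypes. Its other 3 probe sets gave -0.16, 0.29 and 0.52 on the log2 scale in wild type. Whether Flt1 went opposite to Kdr in wild type thus depends on the probe set. Tek, the angiopoietin receptor Tie2, had signals of 120, 115, 124 and 122, and was level across the 4 arrays. The median of the 6 receptors was 1.09 in wild type and 0.05 in SAP-BNP-Tg mice.

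Of the 3 lymphatic genes, Flt4 and Mmrn1 were called higher in wild type and none in SAP-BNP-Tg mice. Flt4 had signals of 27.4, 76.8, 41.5 and 57.6 on the probe set used, Present on the chlorhexidine arrays alone. Its other probe set was also Present on the wild-type vehicle array and differed by 0.28 on the log2 scale in wild type. On the probe set used Flt4 was at least 2.80-fold higher in wild type and at least 1.39-fold higher in SAP-BNP-Tg mice. Mmrn1, the secreted protein multimerin 1 of lymphatic endothelium and platelets, had signals of 68.2, 200.2, 90.8 and 179. Both chlorhexidine arrays were clearly above both vehicle arrays, by 2.93-fold in wild type and 1.98-fold in SAP-BNP-Tg mice. The 6 detected platelet and megakaryocyte markers showed medians of 0.51 in wild type and 1.88 in SAP-BNP-Tg mice, and their summed signal was 783, 906, 727 and 1223. Their part in the Mmrn1 difference was not tested. Prox1, the transcription factor that sets lymphatic identity, was Present only on the transgenic vehicle array, with signals between 6.56 and 11.8 over the 4 arrays.

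For the ligands, the median of the 7 detected was above 0 in wild type, at 0.53, and below 0, at -0.42, in SAP-BNP-Tg mice, and none was called in either genotype. Vegfa, the main angiogenic growth factor, had signals of 264, 285, 436 and 245. The transgenic vehicle array was the high one, so that Vegfa was 1.78-fold lower with chlorhexidine in SAP-BNP-Tg mice and differed by 0.11 on the log2 scale in wild type. Its other probe set, not Present on the wild-type vehicle array, gave 0.76 in wild type and -0.47 in SAP-BNP-Tg mice. Vegfc, the ligand of Flt4, had signals of 37.6, 66.7, 49.6 and 29.9, highest on the wild-type and lowest on the transgenic chlorhexidine array. Angpt2, which opposes angiopoietin 1 at Tek and primes vessels for sprouting, had signals of 38.7, 63.7, 48.6 and 28.9 in the same order, and was not Present on the lowest or on the wild-type vehicle array.

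Vegfb, a VEGF of muscle and fat that binds Flt1, had signals of 287, 149, 280 and 209, lower with chlorhexidine by 1.93-fold in wild type and 1.34-fold in SAP-BNP-Tg mice. Angpt1, the activating ligand of Tek made by perivascular cells, had signals of 125, 90.6, 85.4 and 76.1. On the probe sets used, both were lower with chlorhexidine in each genotype. The other Angpt1 probe set, Present on the wild-type chlorhexidine array alone, gave 0.80 on the log2 scale in wild type and -0.53 in SAP-BNP-Tg mice. With chlorhexidine, adipocyte markers showed medians of -1.46 in wild type and -0.70 in SAP-BNP-Tg mice. Their summed signal was 5427, 1932, 5816 and 3527, and a relation to Vegfb and Angpt1 was not tested. Apln, the apelin ligand of Aplnr, had signals of 44.5, 64.2, 38.2 and 37.2. Edn1, the vasoconstrictor endothelin 1, had signals of 38.0, 57.5, 55.6 and 50.0 and was not Present on the first array. Both were highest on the wild-type chlorhexidine array by less than 2-fold. Pgf, placental growth factor, which binds Flt1, was listed at 4.68, 39.7, 7.72 and 24.96 but was Present on no array, so no fold is given.

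Among vasoactive receptors and enzymes, Aplnr was the gene called higher in both genotypes. This apelin receptor had signals of 187, 602, 135 and 308. Both chlorhexidine arrays lay above both vehicle arrays, by 3.22-fold in wild type and 2.28-fold in SAP-BNP-Tg mice. The second was 0.98 on the log2 scale, and not called, with the deposited scaling. Ednrb, the endothelin B receptor, had signals of 203, 289, 306 and 438 on the probe set used. On that probe set it was higher with chlorhexidine and higher in SAP-BNP-Tg mice under both treatments, each time by 1.42-fold to 1.52-fold. Its other 2 probe sets gave 1.09 and 1.13 on the log2 scale with chlorhexidine in wild type. Between the chlorhexidine arrays they gave 0.67 and -0.04. Nos3, endothelial nitric oxide synthase, had signals of 109, 54.9, 96.2 and 82.1, lower with chlorhexidine by 1.99-fold in wild type and by 1.17-fold in SAP-BNP-Tg mice. Calcrl and Ramp2 together form the adrenomedullin receptor. Calcrl had signals of 107, 157, 135 and 143 and Ramp2 had 232, 205, 215 and 187, so the partners differed in sign. Ece1, which activates endothelin, had signals of 243, 220, 219 and 197 on the probe set used, slightly lower with chlorhexidine in both genotypes. A probe set not Present on the wild-type vehicle array gave 1.33 on the log2 scale in wild type and 0.29 in SAP-BNP-Tg mice. Another, Present on the wild-type chlorhexidine array alone, gave 0.11 and -2.94.

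Of the Notch genes, Dll4, the endothelial Notch ligand, had signals of 16.2, 24.4, 34.8 and 22.5 on the probe set used, which was Present on the wild-type chlorhexidine array alone. The other Dll4 probe set was Present on all 4 arrays, at 17.7, 21.3, 25.1 and 17.5, and differed with chlorhexidine by 0.27 on the log2 scale in wild type. In both readings the transgenic vehicle array was the high one. Hey1, a Notch target, was listed at 52.2, 35.4, 41.7 and 39.9 and Erg, an ETS factor of endothelium, at 33.9, 39, 40.6 and 30, with neither Present on any array.

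The adhesion and activation genes showed a median of 0.88 in wild type and one of 0.77 in SAP-BNP-Tg mice. Icam1, which binds leukocyte integrins on activated endothelium and is also made by mesothelial cells and leukocytes, had signals of 107, 196, 89.8 and 181. Both chlorhexidine arrays stood above both vehicle arrays, by 1.83-fold in wild type and 2.02-fold in SAP-BNP-Tg mice, so that only the second was called. Under the other scalings of the arrays the second stood between 0.81 and 0.98 on the log2 scale and was not called. Vcam1, another leukocyte adhesion molecule, had signals of 215, 264, 181 and 262, higher by 1.23-fold and 1.45-fold. Sele, E-selectin of activated endothelium, was listed at 0.234 and 7.63 on the vehicle arrays, not Present, and was Present at 9.84 and 16.3 on the chlorhexidine arrays. It was at least 3.36-fold higher in wild type and at least 2.13-fold higher in SAP-BNP-Tg mice, at signals too dim to be called. The 10 leukocyte markers showed medians of 0.58 and 0.48 and a summed signal of 5669, 8528, 5607 and 8636, and their part in these differences was not tested. Apold1, an endothelial early response gene, had signals of 39.0, 72.1, 88.2 and 44.3, higher with chlorhexidine in wild type and lower in SAP-BNP-Tg mice, each by less than 2-fold.

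**Figure D2:**
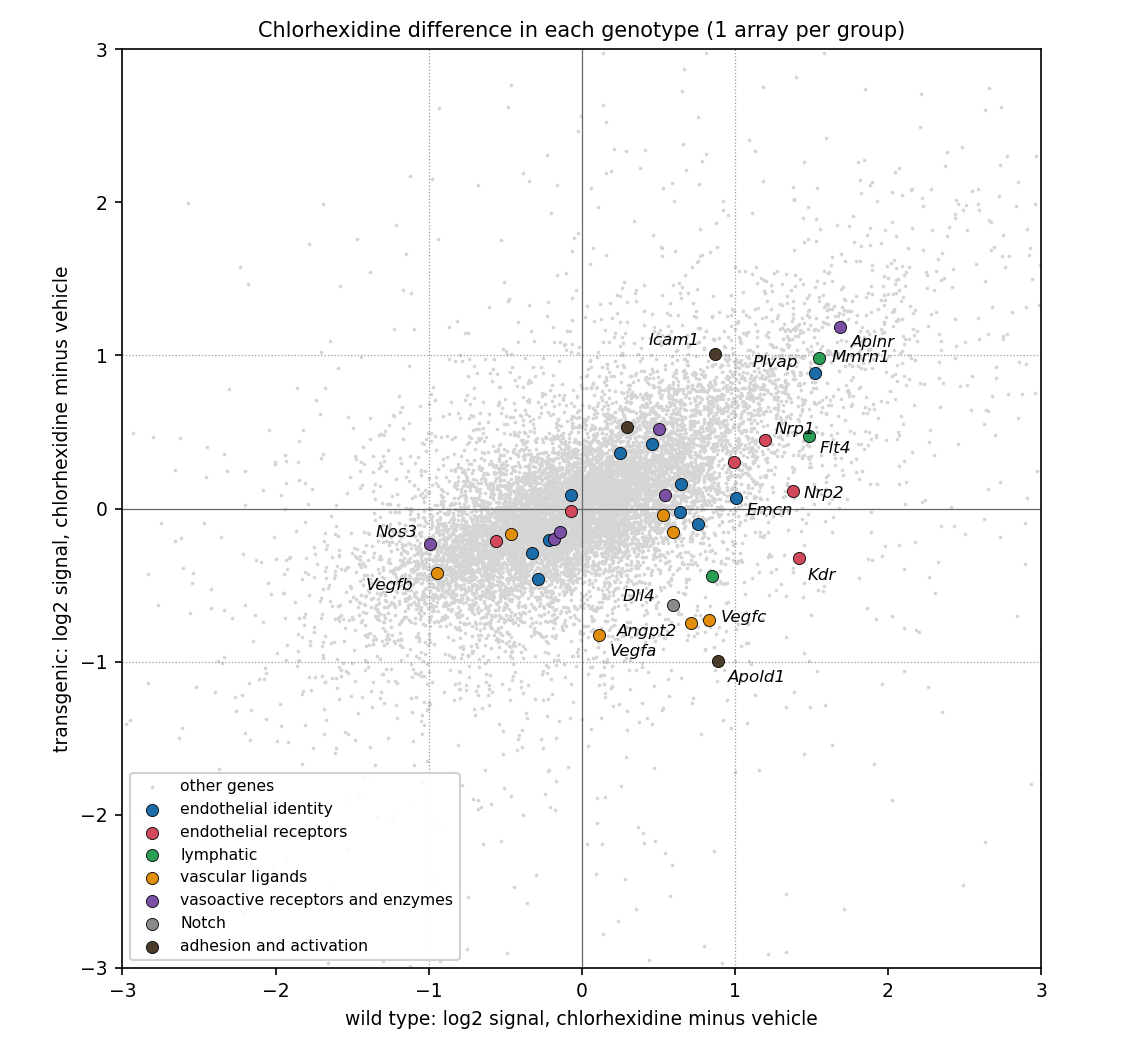
Log2 difference, chlorhexidine minus vehicle, in wild type (x axis) and transgenic mice (y axis), for detected genes of the list by role and all other detected genes in grey; dotted lines mark 2-fold. Kdr, Nrp2 and Emcn lie near 0 on the transgenic axis, Vegfc, Angpt2 and Apold1 lie below it, and Sele (5.39 and 1.09) and other genes beyond 3 on either axis are out of view.

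Between the vehicle arrays, 1 of the 38 genes was called higher in SAP-BNP-Tg mice (2.63%), where 0.957% of all genes were, and none was called lower (0.502% of all genes). The gene was Apold1, at 2.26-fold. Vegfa was 1.65-fold higher on the transgenic vehicle array and Sox18 was higher by 0.73 on the log2 scale. The median of the 38 was 0.32, with 27 of 38 above 0, where the median of all genes was -0.04. The wild-type vehicle array was thus the lower of the pair for most of the list. The probe sets used for Dll4, Sele and Flt4 were Present on neither vehicle array and give no fold there.

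Between the chlorhexidine arrays, 3 of the 38 genes were called lower in SAP-BNP-Tg mice (7.89%), where 0.957% of all genes were, and none was called higher (0.784% of all genes). Kdr was 2.64-fold lower, Vegfc 2.23-fold lower and Angpt2 at least 2.20-fold lower. With a pseudocount of 32, Vegfc at -0.67 and Angpt2 at -0.65 were not called. Aplnr and Nrp2 came next, at 1.96-fold and 1.94-fold lower, and Vegfb and Nos3 were higher, by 0.49 and 0.58 on the log2 scale. Flt1 was higher by 0.74 on the log2 scale, so the main VEGF-A receptors differed in opposite directions between these arrays. The median of the 38 was -0.16 with 11 of 38 above 0, where that of all genes was -0.03. On the transgenic chlorhexidine array the red cell gene Alas2, which makes heme, had a signal of 1178 against 150 to 212 on the others. The summed signal of the 3 measured erythroid markers was 224, 249, 161 and 1377, and the part of blood in these differences was not tested.

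The chlorhexidine difference in SAP-BNP-Tg mice minus that in wild type had a median of -0.53 over the 38 genes, below 0 for 26 of them, where the median of all genes was 0.02. It was -1.74 for Kdr, -1.27 for Nrp2, -1.01 for Flt4 and -0.94 for Emcn, and 0.14 for Icam1 and -0.50 for Aplnr. By role, the medians were -0.17 for identity genes, -0.72 for receptors, -0.75 for ligands and -0.01 for vasoactive genes. They were -1.01 for the 3 lymphatic genes and -0.87 for the 4 adhesion and activation genes, of which 2 were below 0. The lymphatic median is the value of Flt4, while the other Flt4 probe set differed by 0.28 in wild type and 0.13 in SAP-BNP-Tg mice. Sele stood at -4.30. The probe sets used for Flt4 and Sele were Present on neither vehicle array, so both medians rest in part on undetected signals. Over the 32 genes Present on all 4 arrays the median was -0.31. All 4 arrays enter each of these values, so the difference itself has no test.

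Replacing the vehicle array showed which values depend on it. With the transgenic vehicle array as the base, the median of the wild-type chlorhexidine array fell from 0.60 to 0.23, and the genes called higher were Aplnr, Icam1, Kdr, Mmrn1, Nrp2 and Plvap. Kdr stood at 1.08, Nrp2 at 1.07, Mmrn1 at 1.14, Plvap at 1.49 and Aplnr at 2.16, while Nrp1 at 0.98, Flt4 at 0.89 and Emcn at 0.50 were no longer called. Of the genes not called, Tie1 went from 0.99 to 0.46, Pecam1 from 0.64 to 0.17 and Vegfc from 0.83 to 0.43. Apold1 turned from 0.89 to -0.29, while Nos3 at -0.81 and Vegfb at -0.91 stayed near their values. Against the wild-type vehicle array, the transgenic chlorhexidine median went from -0.03 to 0.29, and the genes called higher were Ednrb, Flt4 and Mmrn1, with Aplnr at 0.72 and Icam1 at 0.76. Mmrn1 was thus called in 3 of its 4 pairings and stood at 0.98 in the other. Kdr was called in both pairings of the wild-type chlorhexidine array, and stood at -0.32 and 0.02 in those of the transgenic one.

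**Figure D3:**
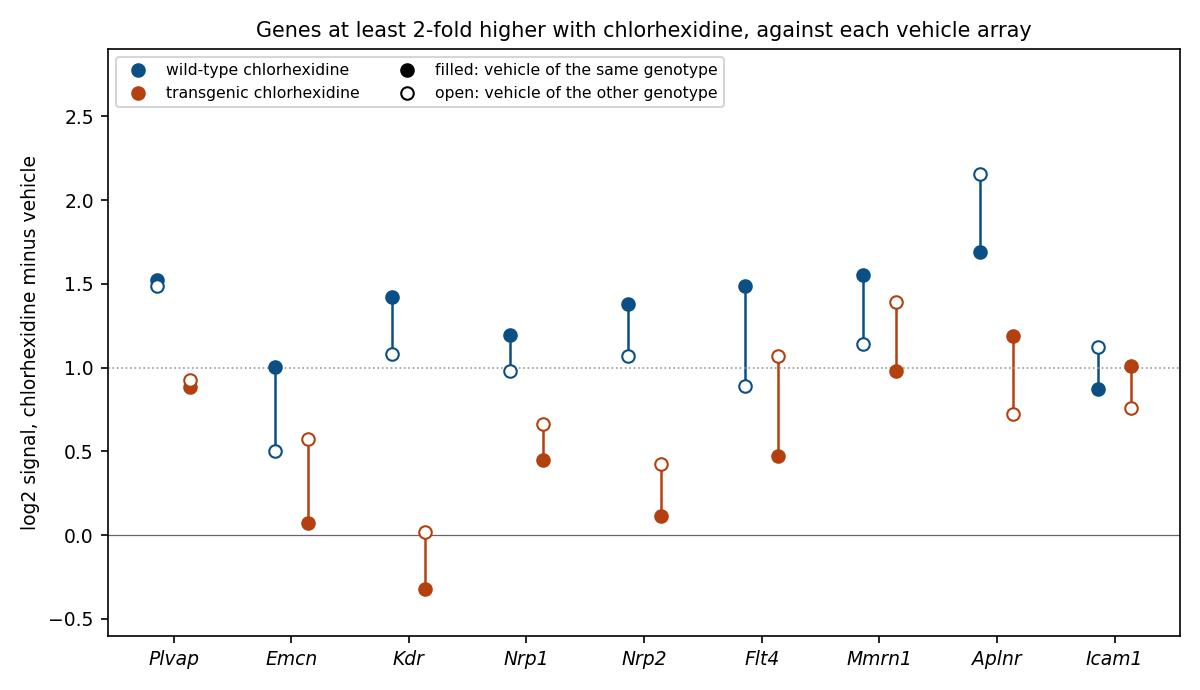
Log2 difference, chlorhexidine minus vehicle, for the 9 genes called higher in either genotype, against the vehicle array of the same genotype (filled) and of the other genotype (open); the dotted line marks 2-fold. Both wild-type points of Kdr and Nrp2 lie above the line and both transgenic points lie below 0.5, while the points of Icam1 lie on both sides of the line in each genotype.

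Probe sets of the same gene give a second reading of each difference from the same RNA. Of the 38 genes, 17 had several probe sets Present on at least 1 array, and all of a gene's probe sets shared the sign for 12 of these genes in wild type and 14 in SAP-BNP-Tg mice. Between probe sets of one gene the SD was 0.517 on the log2 scale in wild type and 0.560 in SAP-BNP-Tg mice. The 4 probe sets of Nrp1 lay between 0.79 and 1.22 in wild type and the 3 of Nrp2 between 1.38 and 1.60. In SAP-BNP-Tg mice those of Nrp1 lay between 0.09 and 0.86 and those of Nrp2 between 0.11 and 0.63. The lowest of Nrp2 there was the probe set used. The 2 of Aplnr were at 1.69 and 1.93 in wild type but at 1.19 and 0.25 in SAP-BNP-Tg mice, so that the transgenic call rests on the brighter one. The other Flt4 probe set gave 0.28 in wild type against 1.49 for the one used.

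Vegfc had 3 probe sets, all higher with chlorhexidine in wild type (0.24 to 0.83), while in SAP-BNP-Tg mice they ran from -0.73 to 0.23. Between the chlorhexidine arrays they were at -0.44, -1.16 and -0.62, lower in SAP-BNP-Tg mice each time. The lowest is from a probe set whose name marks possible binding to other transcripts, and without such probe sets Vegfc stood at -0.62 and was not called. The probe sets of Flt1 disagreed in wild type, from -0.56 to 0.52. Kdr, Plvap, Emcn and Icam1 each have 1 probe set, and the second probe sets of Mmrn1 and Angpt2 were Present on no array, so these genes have no such reading.

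**Figure D4:**
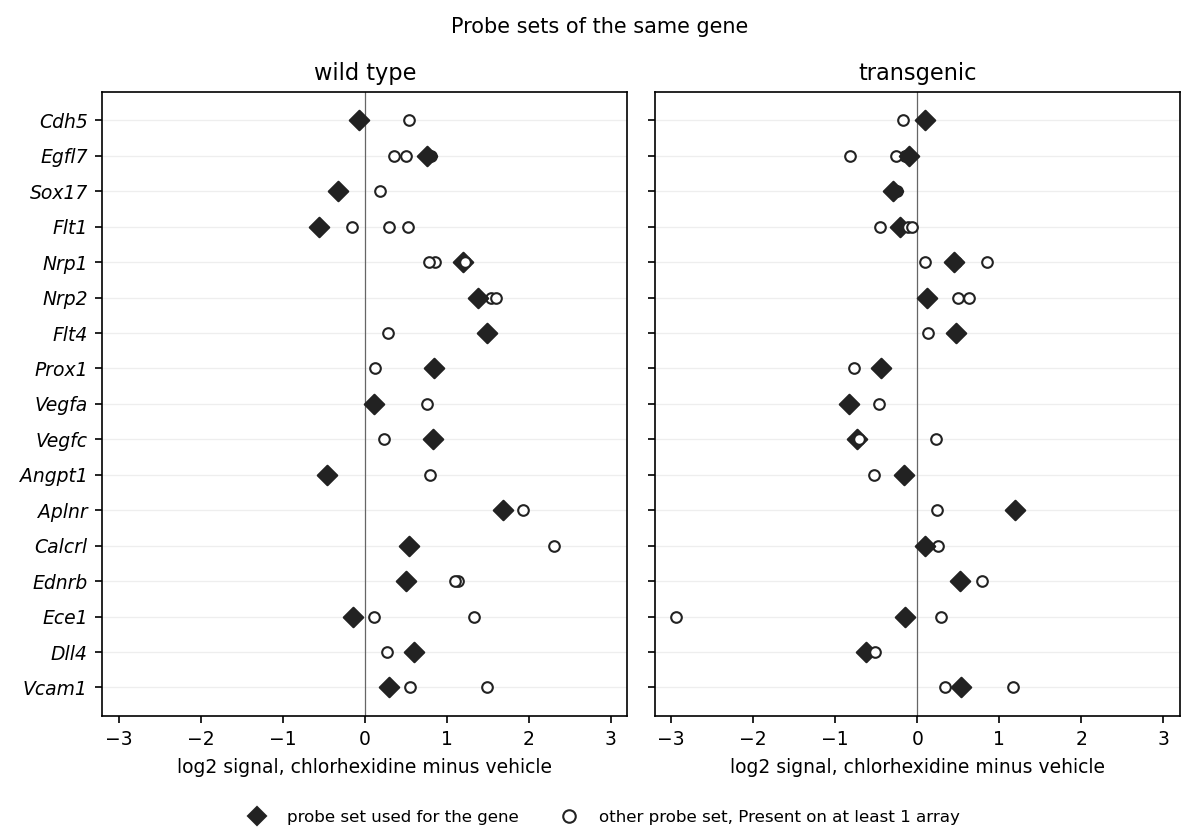
Log2 difference, chlorhexidine minus vehicle, of every probe set Present on at least 1 array for the 17 genes with several, in wild type (left) and transgenic mice (right). The probe sets of Nrp1 and Nrp2 all lie above 0 in both genotypes, and those of Flt1 and Ece1 lie on both sides of 0 in wild type.

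A limma fit with treatment and genotype as additive terms leaves 1 residual degree of freedom. It takes any difference in response between the genotypes as error, which includes that of Kdr. The fit was run on all 12754 detected genes with Benjamini-Hochberg adjustment. For treatment, none of the 38 genes had an adjusted p below 0.05, where 12 genes of all did (0.0941%). The unadjusted p was below 0.05 for 8 of the 38 (21.1%), where it was for 23.0% of all genes, a share near the background. The lowest adjusted p belonged to Aplnr, with a treatment coefficient of 1.44 (SE 0.241) and a limma adjusted p of 0.0729. Mmrn1 followed at 1.27 (SE 0.249, limma adjusted p = 0.0888) and Plvap at 1.21 (SE 0.257, limma adjusted p = 0.101). These genes had chlorhexidine arrays above vehicle arrays in both genotypes. Kdr, whose arrays did not, had a coefficient of 0.55 (SE 0.451, limma adjusted p = 0.499). For genotype, none of the 38 passed in limma and none of all genes did (0.0%), while Aplnr, Ednrb and Sele had an unadjusted p below 0.05 (7.89% against 4.96% of all genes).

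The number passing in this fit depended on settings. It was 7 of 38 with a pseudocount of 32 (18.4%, where 18.5% of all genes passed) and 2 of 38 with the deposited scaling (5.26%, where 5.66% did). It was 9 of 38 with an intensity trend in the variance (23.7%, where 19.5% did) and 8 of 32 among genes Present on all 4 arrays (25%, where 21.4% did). These shares lie near the background. Aplnr was among them each time.

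Other genes of these pathways, from lists drawn up by function, are given for context, with the number called of those detected. The counts of every list stand beside the shares of all genes. These were 8.22% called higher and 4.93% lower in wild type, and 3.81% and 1.4% in SAP-BNP-Tg mice. Of 31 other endothelial genes, none was called in SAP-BNP-Tg mice, and their medians were 0.13 in wild type and 0.02 in SAP-BNP-Tg mice. In wild type 3 were called higher, a share near that of all genes. They were Eng, a co-receptor for transforming growth factor beta ligands (184, 426, 219 and 270), Cd93 (296, 876, 437 and 616) and Tm4sf1 (403, 882, 403 and 707). None of 6 other lymphatic genes was called in either genotype. Of 13 other Notch and ephrin genes, Efnb2, the ephrin of arteries, was 5.42-fold higher and Jag1 2.08-fold higher in wild type, and Notch4 2.04-fold lower, with none called in SAP-BNP-Tg mice.

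Of 15 other angiogenic ligands and modulators, 4 were called higher and 1 lower in wild type, and 3 higher in SAP-BNP-Tg mice. Slit2 and Slit3, ligands of Robo receptors, were higher in both genotypes, by 2.88-fold and 3.00-fold in wild type and by 2.73-fold and 2.93-fold in SAP-BNP-Tg mice. Fgf1 was 3.11-fold lower in wild type. The matricellular Ccn1 had signals of 458, 1255, 1073 and 557, the same order of arrays in each genotype as Apold1. Among 10 angiogenesis inhibitors, 4 were called higher in wild type and 1 in SAP-BNP-Tg mice. They include Thbs1, thrombospondin 1, with signals of 91.1, 984, 287 and 540, and Adamts1, with 198, 614, 277 and 249.

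Of 13 hypoxia response genes, Hif1a was 2.43-fold higher in wild type and Epas1 and Egln1 were 2.14-fold and 2.38-fold lower, with none called in SAP-BNP-Tg mice. Among 9 vasoactive partners, Ramp1, the partner of Calcrl in the CGRP receptor, and Npr3, the natriuretic peptide clearance receptor, were lower in both genotypes, and Ace, angiotensin-converting enzyme, was higher in both. Of 13 genes of leukocyte capture, 4 were called higher in wild type and 2 in SAP-BNP-Tg mice. Selp, the P-selectin of endothelium and platelets, had signals of 23.5, 78.8, 22.1 and 79.4, at least 3.35-fold higher in wild type and 3.59-fold higher in SAP-BNP-Tg mice. It followed Sele and Icam1 in having both chlorhexidine arrays above both vehicle arrays.

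Markers of other cells in the wall differed as well. The 12 mural cell markers, which mark the pericytes and smooth muscle around vessels, showed medians of -0.00 in wild type and 0.05 in SAP-BNP-Tg mice and a summed signal of 12088, 10548, 11357 and 10594. The 7 fibroblast markers showed medians of 0.82 and 0.45 and a summed signal of 11493, 21409, 12070 and 18108. The 8 mesothelial markers showed medians of -0.82 and 0.32 and a summed signal of 685, 368, 525 and 574. The part of these cells in the vascular differences was not tested.

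**Figure D5:**
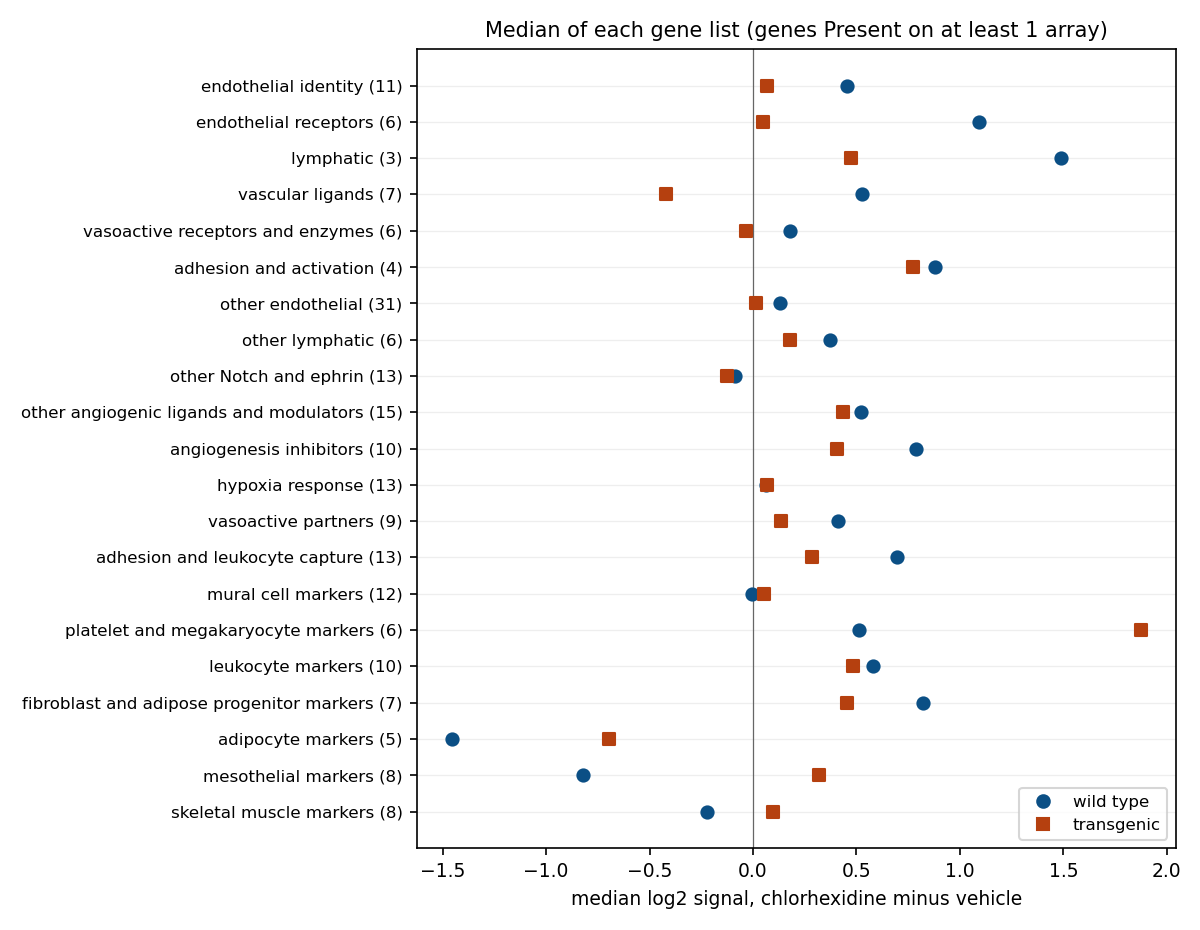
Median log2 difference, chlorhexidine minus vehicle, of each gene list in wild type (circles) and transgenic mice (squares), with the number of detected genes in parentheses. Receptors stand at 1.09 and 0.05 and ligands at 0.53 and -0.42, while other endothelial genes stand at 0.13 and 0.02; lists with fewer than 3 detected genes are left out, and the hypoxia points overlap.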

How the data were processed

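Per the labels' protocols, peritoneal total RNA was purified on columns (RNeasy) and biotin-labelled. Each probe set has a linear signal intensity, a detection p-value and a detection call (Present, Marginal or Absent), all from the authors, per the file headers. Their software and scaling were not given in the sources used here. Per the design text, the raw scans were lost. Comparing the deposited series table with the array files found 0 differing intensity values.

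The 2% trimmed means were 86.8, 103, 116 and 101. Each array was multiplied to a common trimmed mean, signals were set to at least 0.1, and log2 was taken. Of 45037 probe sets that are no controls, 34945 had 1 gene symbol in the platform annotation, 932 several and 9160 none in the table used here, and symbols were updated through Entrez identifiers to RefSeq (GRCm38.p6) for 34741. Each gene is read from the probe set whose log2 signal, averaged over the arrays, was highest. Where the dimmer array was not Present, a fold was taken against the higher of its own signal and the lowest Present signal of that array, and where the brighter one was not Present no fold was given. With 1 array per group, genes were called by size (threshold of 1 on the log2 scale) with no test. The additive fit used limma 3.58.1 in R 4.3.3. Its p-values measure only the spread between these arrays, in which a differing response of the genotypes counts as error. The code for the calls and the fit was run on simulated data with changes well above the threshold, equal in both genotypes, and no Present filter. That run does not measure how reliable the calls given here are.

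The genes and lists were chosen with earlier results of these data known. Every gene of the list is named, and of each other list at most 4 genes, by the mean chlorhexidine difference among genes called in a genotype. Alternatives were other array scalings, a pseudocount, other filters, other probe set rules, other fold thresholds, the other vehicle array and an intensity trend in the variance prior.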

Additional observations from a re-analysis of the deposited data

Results flagged for a closer look

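For 4 genes the chlorhexidine difference went one way in wild type and the other way in transgenic mice, by at least 0.5 on the log2 scale in each, a size chosen after seeing the data. With 1 array per group the difference between the genotypes was not tested. The transgenic difference minus the wild-type one was -1.88 for Apold1, -1.56 for Vegfc, -1.47 for Angpt2 and -1.22 for Dll4. Apold1 stood at 0.89 in wild type and -0.99 in SAP-BNP-Tg mice, and Vegfc at 0.83 and -0.73. Against the vehicle array of the other genotype, Apold1 stood at -0.29 and 0.18 and Vegfc at 0.43 and -0.33. The other 2 Vegfc probe sets, both Present on all 4 arrays, did not both show the opposition. One gave 0.83 and 0.23, higher in both genotypes, and the other 0.24 and -0.71. Angpt2 was Present on 2 arrays, and its folds are lower bounds of 1.64 higher in wild type and 1.68 lower in SAP-BNP-Tg mice. The Dll4 probe set used was Present on 1 array and gives no fold in SAP-BNP-Tg mice, so that its direction there is not measured. The other Dll4 probe set, Present on all 4 arrays, gave 0.27 and -0.52, the first below the size used here.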

How the results depend on the processing

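No paired analysis was possible because each group has 1 array and the labels give no replicate numbers. For the same reason no replicate was left out. The signals of dim genes (Prox1, Sele, Dll4) limit what can be read from them. The settings below moved values as follows, and the cause was not tested.

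In wild type, the members' median with chlorhexidine was 0.44 under quantile normalization, 0.41 under median centring, 0.47 under cyclic loess, 0.41 with a pseudocount of 32, 0.85 with the deposited scaling and 0.23 against the transgenic vehicle array. Counts are followed by the percentage of all genes called under the same setting. The genes called higher were 13 with the deposited scaling (12.4%), 17 at 1.5-fold (16.6%) and 1 at 3-fold (3.32%). Those called lower were 2 under quantile normalization (5.89%), median centring (8.37%) and 1.5-fold (14.9%), and 1 under cyclic loess (5.54%). In transgenic mice the median was -0.23 with the deposited scaling and 0.29 against the wild-type vehicle array. The genes called higher were 1 under quantile normalization (3.65%), median centring (3.37%), cyclic loess (3.61%), the pseudocount (1.97%) and the mean of probe sets (4.58%), 0 with the deposited scaling (2.58%) and at 3-fold (1.16%), and 4 with no filter (11.0%) and at 1.5-fold (9.77%). Those called lower were 1 under quantile normalization (1.57%), median centring (1.69%) and cyclic loess (1.48%), 2 with the deposited scaling (2.51%) and 4 at 1.5-fold (5.35%).

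Between the vehicle arrays the median was 0.74 with the deposited scaling, 0.21 with the pseudocount, 0.18 over genes Present on all 4 arrays and 0.18 with the mean of probe sets. The genes called higher were 4 with the deposited scaling (3.59%) and at 1.5-fold (3.57%), 3 with no filter (8.9%), 2 with the mean of probe sets (2.92%), and 0 with the pseudocount (0.306%) and at 3-fold (0.243%). Between the chlorhexidine arrays 1 gene was called lower with the pseudocount (0.329%), 0 at 3-fold (0.22%) and 8 at 1.5-fold (4.29%), where 2 were called higher (3.46%). The median difference of differences was -0.42 under quantile normalization and median centring, -0.41 under cyclic loess, -0.99 with the deposited scaling, -0.35 with the pseudocount and -0.31 over genes Present on all 4 arrays. In the limma fit for treatment, the genes passing were 2 with the deposited scaling (5.66%), 7 with the pseudocount (18.5%), 8 with Present calls on all 4 arrays (21.4%) and 9 with the intensity trend (19.5%).

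With probe sets averaged per gene, Mmrn1 turned to -0.61 in wild type and Angpt2 to 0.35 between the chlorhexidine arrays; the second probe set of each, Present on no array, enters that mean. The scalings moved the median of all genes in wild type to -0.11 (quantile), -0.18 (median centring) and 0.25 (deposited). They moved its split of higher and lower calls from 1048 and 629 to 777 and 1067 (median centring) and 1583 and 318 (deposited), and in transgenic mice from 486 and 178 to 329 and 320 (deposited). Of 159 summary values, 106 stayed near the main value. Of 448 values of single genes, 410 kept their direction and side of the threshold.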
